A study of Mus musculus with 12 samples.

Results

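The genes described are the 5 sphingosine 1-phosphate receptors (S1pr1, S1pr2, S1pr3, S1pr4 and S1pr5) and 3 enzymes of sphingosine 1-phosphate turnover (Sphk1, Sphk2 and Sgpl1). They were found by gene symbol among the probe sets that carry a single symbol, which gave 14 of 45037 probe sets and 8 of 18193 genes. RNA was measured on 12 Affymetrix mouse arrays, 3 for each of 4 groups of B cells sorted by flow cytometry from female C57BL/6 mice. The spleen of mice older than 15 months gave age-associated B cells (old ABC) and follicular B cells (old FO). The peritoneal cavity gave B1 cells, called B1a in the sample titles, from mice older than 15 months (old B1) and from mice of 8 weeks (young B1). No group was cultured, and the labels name no treatment or genetic change. The labels do not give the surface markers of the sort or say whether the 3 replicates are separate mice, so each p reflects only how far these samples spread, which may be technical. Organ and cell type change together between the spleen groups and B1 cells and cannot be told apart. Between the spleen groups and young B1, age changes along with them.

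Sphingosine 1-phosphate is a lipid signal that is abundant in blood and lymph and scarce inside tissues. Sphingosine kinases make it by phosphorylating sphingosine, phosphatases turn it back, and the lyase Sgpl1 destroys it for good. It acts through G protein-coupled receptors that steer lymphocytes: S1pr1 promotes exit into blood and lymph and helps hold marginal zone B cells in place, S1pr2 restrains migration and keeps germinal centre B cells in follicles, and S1pr5 is known for the exit of natural killer (NK) cells and patrolling monocytes.

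All values are log2 intensity unless named otherwise, ± after a group mean is the SD of 3 arrays, and ± after a difference is the standard error of the limma fit. A gene was called where limma's Benjamini-Hochberg adjusted p was under 0.05. A gene under the median of all probe sets on its array is given without a claim that it was above background. Old B1 replicate 3 and old FO replicate 2 stood apart from the other arrays. The 75th percentile of intensity was 346 and 378 on them against 400.1 to 412 on the other 10, and limma gave them the lowest array weights, 0.102 and 0.349. Results of the 8 genes that rest on these arrays are given with and without them, as are the other pathway genes they move most. The summed intensity of 9 B cell identity genes was 54870 to 63570 over the 12 arrays.

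S1pr5 had the widest range of the 8 genes, from 4.56 to 10.65 over the 12 arrays. The 250 bases upstream of its RefSeq start, shown because this gene separated the groups most, lie at chr9:21248444-21248693 on the minus strand (GRCm38.p6). Capitals mark the GC box, GGGCGG or its reverse complement CCGCCC, which has 2 matches here.
S1pr5: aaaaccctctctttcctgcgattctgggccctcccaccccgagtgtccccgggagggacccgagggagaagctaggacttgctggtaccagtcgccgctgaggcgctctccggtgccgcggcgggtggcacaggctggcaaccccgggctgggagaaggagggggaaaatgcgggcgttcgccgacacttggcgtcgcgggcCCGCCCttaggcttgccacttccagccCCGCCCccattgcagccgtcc
The GC box occurred in 32.7% of the 32851 RefSeq promoter entries of the same length. A T-box site (GGTGTGA or TCACACC, in 3.33% of entries), an E2-box (CAGGTG or CACCTG, in 17.2%), a KLF-type CACCC box (CCACACCC or GGGTGTGG, in 3.2%) and a TATA box (TATAAA or TTTATA, in 12.4%) had no match in this window. Matches were sought on both strands and are a description of letters only. The window was 69.2% G and C and held 22 CpG, against medians of 52.4% and 6 over all entries.

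S1pr5 RNA was high in old ABC and in no other group. It measured 9.92, 10.65 and 9.79 on the old ABC arrays and 4.56, 4.76 and 4.91 on the old FO arrays. Old B1 cells gave 6.23, 6.47 and 4.73, and young B1 cells gave 4.92, 4.89 and 5.30. Every old ABC array was above every array of the other groups, and the old FO arrays, the young B1 arrays and old B1 replicate 3 all lay under their array's median. The fitted difference between old ABC and old FO was 5.38 ± 0.40, or 41.6-fold (limma adjusted p = 1.7e-05), and between old ABC and old B1 it was 4.31 ± 0.40, or 19.8-fold (limma adjusted p = 6.8e-05). Old ABC exceeded young B1 by 5.08 ± 0.40 (limma adjusted p = 2.3e-05). Since the lower levels were not shown to be above background, these folds are ratios of the deposited intensities and not measured ratios of transcript. Over all 18 alternative settings and left-out arrays, the difference from old FO stayed between 4.72 and 5.54 and that from old B1 between 3.73 and 4.64, called in each. In sorted bulk samples, fewer cells that hold a transcript and less of it per cell cannot be told apart.

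Below old ABC, the S1pr5 means were 5.81 ± 0.94 in old B1, 5.04 ± 0.23 in young B1 and 4.74 ± 0.18 in old FO, and no neighbours in that order passed the test. The order of such dim levels is a description only. Old B1 exceeded old FO by 1.07 ± 0.40 (limma adjusted p = 0.0993), and old B1 replicate 3 lay within the old FO range. Without that array the difference was 1.61 ± 0.24 (limma adjusted p = 8.6e-04, with 19.5% of all genes called), and old B1 exceeded young B1 by 1.31 ± 0.24 (limma adjusted p = 0.0387, with 0.907% of all genes called) in place of 0.77 ± 0.40 (limma adjusted p = 0.693). Both remaining old B1 arrays were then above all young B1 and old FO arrays.

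**Figure D1:**
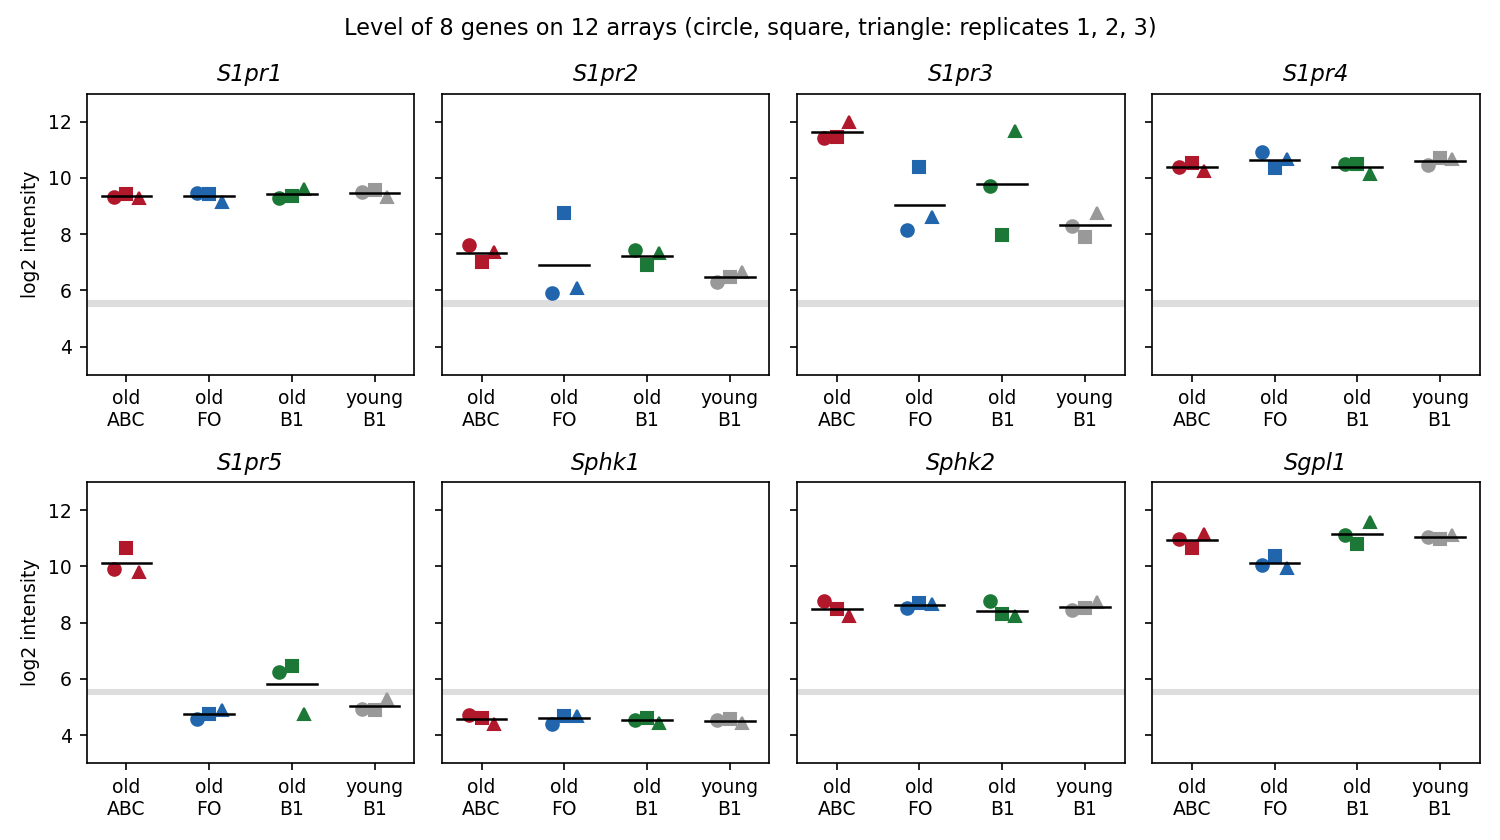
Log2 intensity of the 8 genes on each of the 12 arrays (points) by group, with a line for the mean of 3 arrays. Each panel has its own gene, and the grey band spans the medians of the 12 arrays. S1pr5 lies at 9.79 to 10.65 in old ABC and at 4.56 to 6.47 elsewhere, S1pr3 spreads from 7.98 to 11.68 within old B1, S1pr2 from 5.89 to 8.76 within old FO, and S1pr1, S1pr4, Sphk1 and Sphk2 keep to narrow bands.

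S1pr3, a receptor found on marginal zone B cells and many non-lymphoid cells, was highest in old ABC, with wide spread in 2 other groups. Its upstream window lies at chr13:51408368-51408617 on the plus strand (GRCm38.p6) and is shown for comparison with that of S1pr5; capitals mark its single GC box match.
S1pr3: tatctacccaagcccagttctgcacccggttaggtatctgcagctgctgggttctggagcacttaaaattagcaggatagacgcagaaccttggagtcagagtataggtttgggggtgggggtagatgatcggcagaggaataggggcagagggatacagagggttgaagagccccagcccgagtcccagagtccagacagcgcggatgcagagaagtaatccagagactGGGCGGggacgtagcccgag
This window was 56.4% G and C with 9 CpG, nearer the medians of all entries than the S1pr5 window, and had no match to the other motifs. S1pr3 measured 11.42, 11.46 and 11.98 in old ABC, 8.13, 10.38 and 8.62 in old FO, 9.72, 7.98 and 11.68 in old B1 and 8.30, 7.90 and 8.76 in young B1. The old ABC arrays lay above all old FO and young B1 arrays, while old B1 replicate 3 reached the old ABC range. The high array of old FO was replicate 2, so the high values within old FO and old B1 fell on the arrays that stood apart.

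Old ABC exceeded young B1 in S1pr3 by 3.30 ± 0.81, or 9.84-fold (limma adjusted p = 0.0245). The difference from old FO was 2.58 ± 0.81, or 5.96-fold, with a 95% interval of 0.77 to 4.38 and was not called (limma adjusted p = 0.0807). The difference from old B1 was 1.83 ± 0.81 (limma adjusted p = 0.19). Without both arrays that stood apart, the same differences were 3.24 ± 0.46 (limma adjusted p = 0.00115) and 2.77 ± 0.46 (limma adjusted p = 0.00257), and both were called. S1pr3 against old FO was also called without old FO replicate 2 alone (limma adjusted p = 0.0413), and against old B1 without old B1 replicate 3 alone (limma adjusted p = 0.0151). Old B1 against old FO turned sign with 1 array: it was 0.75 ± 0.81 (limma adjusted p = 0.613) over all arrays and -0.20 without old B1 replicate 3. A second S1pr3 probe set gave the same order of arrays within old FO and old B1, with 7.68, 9.79 and 8.07 in old FO and 9.18, 7.49 and 11.30 in old B1. The third S1pr3 probe set lay under the median on all 12 arrays, at 4.11 to 5.33.

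**Figure D2:**
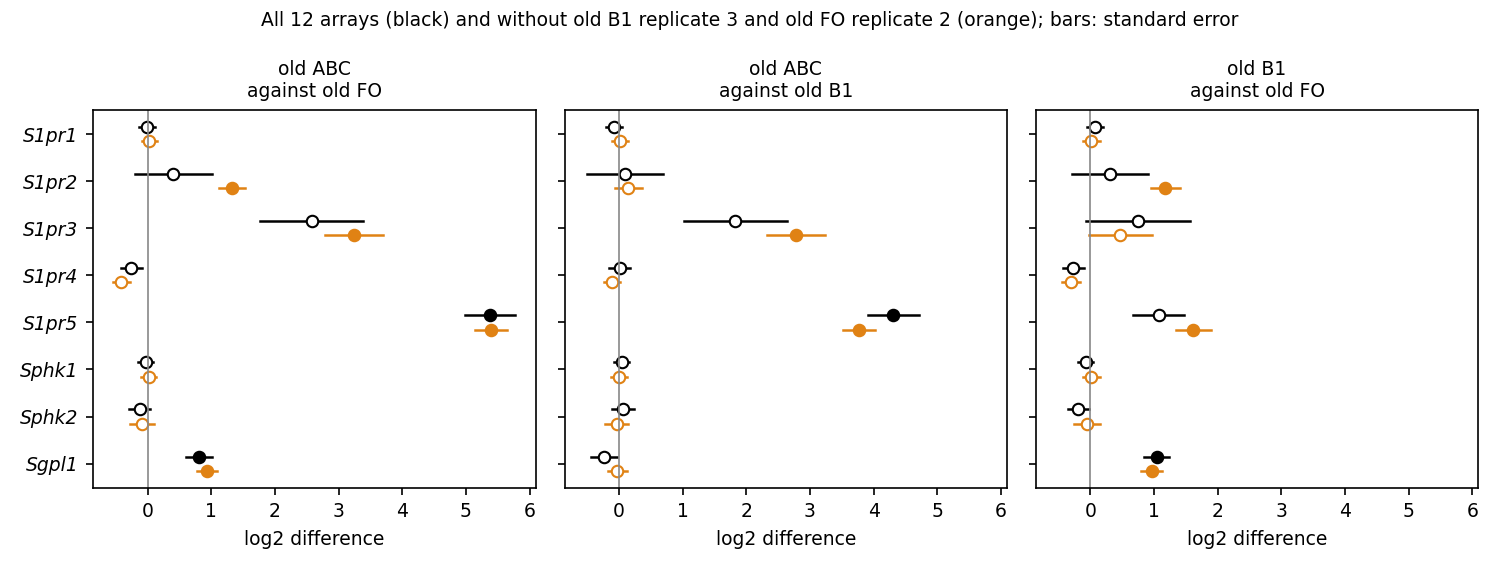
Differences in log2 intensity of the 8 genes with all 12 arrays and without old B1 replicate 3 and old FO replicate 2; points are fitted differences, bars their standard errors, and filled points passed the adjusted p threshold. S1pr3 moves from 2.58 to 3.24 for old ABC against old FO and from 1.83 to 2.77 against old B1, and S1pr2 from 0.40 to 1.33 for old ABC against old FO.

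S1pr2, the receptor that restrains B cell migration, depended on the same old FO array. It measured 7.61, 7.00 and 7.35 in old ABC and 7.43, 6.91 and 7.33 in old B1. Old FO gave 5.89, 8.76 and 6.09, and young B1 gave 6.28, 6.46 and 6.66. Old FO replicate 2 was the highest of all 12 arrays, and the other old FO arrays were the lowest. With all arrays the old ABC mean exceeded the old FO mean by 0.40 ± 0.60 (limma adjusted p = 0.816), with a 95% interval of -0.93 to 1.74. Without old FO replicate 2 it was 1.33 ± 0.21 (limma adjusted p = 0.00406, with 8.49% of all genes called). Old B1 then exceeded old FO by 1.23 ± 0.21 (limma adjusted p = 0.00415, with 16.2% called) in place of 0.31 ± 0.60. All old B1 and old ABC arrays lay above all young B1 arrays, but neither difference was called, at 0.76 ± 0.60 (limma adjusted p = 0.725) and 0.85 ± 0.60 (limma adjusted p = 0.502). The second S1pr2 probe set was under the median on 11 of 12 arrays.

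S1pr1, the receptor for exit into blood and lymph, stayed within 9.15 to 9.59 over all 12 arrays. It measured 9.33, 9.41 and 9.27 in old ABC, 9.47, 9.41 and 9.15 in old FO, 9.29, 9.35 and 9.59 in old B1 and 9.50, 9.58 and 9.32 in young B1, so all groups overlapped. The 95% interval of the difference between old ABC and old FO ran from -0.28 to 0.27, and that between old B1 and young B1 from -0.33 to 0.22. S1pr1 had no entry in the RefSeq promoter table.

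S1pr4, a receptor of blood and lymphoid cells, lay at 10.13 to 10.91. It measured 10.38, 10.53 and 10.24 in old ABC, 10.91, 10.33 and 10.68 in old FO, 10.48, 10.50 and 10.13 in old B1 and 10.45, 10.72 and 10.68 in young B1. The groups overlapped throughout. Its mean was 0.26 ± 0.17 higher in old FO than in old ABC (95% interval of old ABC minus old FO -0.62 to 0.11, limma adjusted p = 0.466).

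Sgpl1, the lyase that removes sphingosine 1-phosphate, was lowest in old FO. Its upstream window lies at chr10:61147685-61147934 on the minus strand (GRCm38.p6) and is printed because Sgpl1 was the only enzyme of the 3 with a call; capitals mark its 3 GC box matches.
Sgpl1: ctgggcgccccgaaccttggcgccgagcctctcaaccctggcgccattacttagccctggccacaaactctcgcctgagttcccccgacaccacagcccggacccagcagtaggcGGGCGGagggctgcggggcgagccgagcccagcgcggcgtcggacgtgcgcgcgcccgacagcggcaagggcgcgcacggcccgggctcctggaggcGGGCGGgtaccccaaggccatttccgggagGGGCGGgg
It was 74.8% G and C with 31 CpG and had no match to the other motifs. Sgpl1 measured 10.04, 10.37 and 9.93 in old FO, 10.97, 10.65 and 11.14 in old ABC, 11.10, 10.80 and 11.57 in old B1 and 11.05, 10.98 and 11.11 in young B1. Every old FO array lay under every array of the other 3 groups, which overlapped among themselves. Old B1 exceeded old FO by 1.04 ± 0.20, or 2.06-fold (limma adjusted p = 0.0049), and old ABC exceeded old FO by 0.81 ± 0.20, or 1.75-fold (limma adjusted p = 0.0285). Old FO was lower than young B1 by a log2 difference of -0.93 ± 0.20 (limma adjusted p = 0.0111).

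The call of Sgpl1 between old ABC and old FO was lost with arrays centred on their median (limma adjusted p = 0.0577), with the mean of its probe sets (limma adjusted p = 0.0721) and without any of old ABC replicates 1 and 3 or old FO replicates 1 and 3, where the limma adjusted p ran from 0.0907 to 0.113. The call between old B1 and old FO was lost when only these 2 groups were fitted (limma adjusted p = 0.0529). The second Sgpl1 probe set had the same direction without a call, at 0.82 ± 0.34 for old ABC against old FO (limma adjusted p = 0.221) and 1.08 ± 0.34 for old B1 against old FO (limma adjusted p = 0.0604). With every probe set tested on its own, 7.69% and 14.2% of them were called in these comparisons. On the second Sgpl1 probe set old B1 replicate 2, at 5.58, lay under old FO replicate 2, at 5.65, so these groups overlapped there.

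Sphk2, the sphingosine kinase found largely in the nucleus and at internal membranes, measured 8.76, 8.48 and 8.24 in old ABC, 8.51, 8.69 and 8.64 in old FO, 8.76, 8.29 and 8.24 in old B1 and 8.46, 8.52 and 8.72 in young B1. All groups overlapped on this probe set, and the 95% interval of old ABC minus old FO was -0.50 to 0.25. The second Sphk2 probe set, at 7.73 to 8.94, was also above the median on every array. There old ABC gave 8.36, 8.18 and 7.99, under all young B1 arrays (8.80, 8.64 and 8.90). That difference of -0.60 ± 0.28 was not called (limma adjusted p = 0.277). Old ABC minus old B1 was -0.29 ± 0.28 on the second probe set and 0.06 ± 0.17 on the first. Sphk1, the largely cytosolic kinase, lay at 4.38 to 4.70, under the median of each of the 12 arrays, as did its second probe set at 4.19 to 4.65. These arrays therefore give no usable order of the groups for Sphk1.

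Counted by comparison, S1pr5 and Sgpl1 were the 2 of 8 genes called between old ABC and old FO, both higher in old ABC, beside 9.96% of all genes called and 7.12% called higher. Between old ABC and old B1, S1pr5 was the 1 gene of 8 called, higher in old ABC, beside 12.8% called and 7.4% higher. Between old B1 and old FO it was Sgpl1, higher in old B1, beside 16.4% called and 8.4% higher. Old ABC exceeded young B1 in 2 genes, S1pr5 and S1pr3 (11.4% of all genes called, 5.95% higher), and old FO lay below young B1 in 1, Sgpl1 (12.9% called, 8% lower). With 8 genes, counts of 1 or 2 are too few to call the family particular in any of these comparisons.

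The arrays did not overlap for 3 of 8 genes between old ABC and old FO (28.8% of all genes), for 1 between old ABC and old B1 (28.8%), 1 between old B1 and old FO (28.9%) and 1 between old B1 and young B1 (13.9%). Against young B1 there were 3 for old ABC (36%) and 1 for old FO (36.3%). The median difference of the 8 genes was 0.20 for old ABC against old FO, 0.05 for old ABC against old B1 and 0.19 for old B1 against old FO, where the medians over all genes were -0.03, 0.02 and -0.04. These comparisons share arrays. Any difference among the 4 groups was called for S1pr5 and Sgpl1 (limma adjusted p = 0.0113 for Sgpl1), beside 20.5% of all genes, and not for S1pr3 (limma adjusted p = 0.0561).

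Without both arrays that stood apart, more of the 8 genes were called, as were more genes in all. Old ABC against old FO gave 4, S1pr2, S1pr3, S1pr5 and Sgpl1 (16.3% of all genes), and old ABC against old B1 gave 2, S1pr3 and S1pr5 (17.5%). Old B1 against old FO gave 3, S1pr2, S1pr5 and Sgpl1 (22%), and old B1 against young B1 gave 1, S1pr5 (1.14%).

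**Figure D3:**
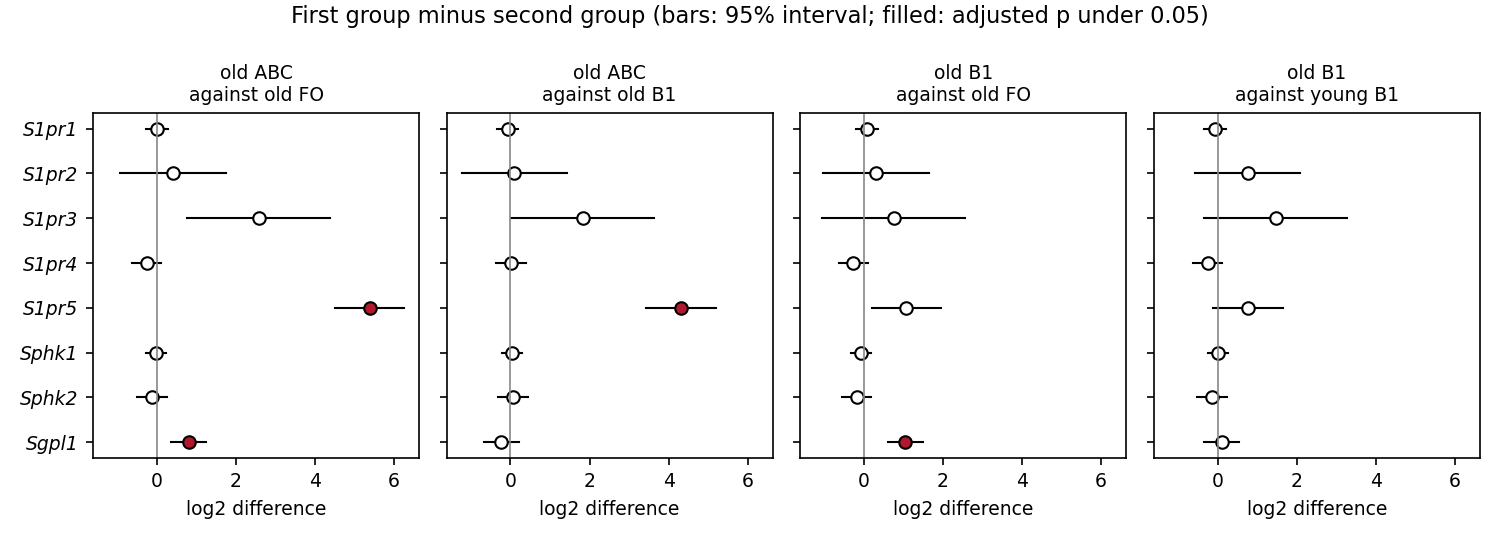
Log2 differences of the 8 genes in 4 comparisons, with 95% intervals of the limma fit; filled points passed the adjusted p threshold. S1pr5 stands at 5.38 and 4.31 in both old ABC comparisons, Sgpl1 at 0.81 and 1.04 above old FO, and no gene passed between old B1 and young B1.

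Age was compared in B1 cells of the peritoneal cavity. None of the 8 genes was called between old and young B1 by limma, and 0 of 8 had an unadjusted p under 0.05, beside 0.291% of all genes called and 7.57% with an unadjusted p under 0.05. The differences with the largest size were 1.47 ± 0.81 for S1pr3 (limma adjusted p = 0.702), 0.77 ± 0.40 for S1pr5 and 0.76 ± 0.60 for S1pr2. Their 95% intervals ran from -0.34 to 3.27, -0.11 to 1.65 and -0.58 to 2.09, so changes of several-fold were not detectable with these arrays. Sgpl1 differed by 0.11 ± 0.20 (95% interval -0.34 to 0.55).

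The rest of the pathway was followed in 7 lists of 65 genes, 60 of them measured. Between old ABC and old FO, 12 of 60 were called, 6 higher and 6 lower (20%, beside 9.96% of all genes). Between old ABC and old B1 it was 12 of 60, 8 higher and 4 lower (20%, beside 12.8%), and between old B1 and old FO 16 of 60, 8 higher and 8 lower (26.7%, beside 16.4%). Among the 11235 genes whose highest group mean reached the median of all probe sets, 17.1%, 22.6% and 29% were called, in that order. Fewer than 60 pathway genes passed that filter, and 15, 17 and 17 of them were called. Their shares were not computed, so these counts are not set against the percentages. The share called over all genes thus rose when dim genes were left out. Between old and young B1 0 of 60 were called by limma, and 5 had an unadjusted p under 0.05, beside 0.291% of all genes called and 7.57% under that p. The median difference of the 60 genes was -0.02 for old ABC against old FO and 0.04 against old B1, beside -0.03 and 0.02 over all genes. When single arrays were left out, 8, 8 and 12 of the called genes kept their call each time. Those that lost it at least once were Arhgef11, Cers4, Cers6 and Gna13 for old ABC against old FO, Arhgef12, Sgms1, Smpd1 and Spns2 for old ABC against old B1, and Apom, Kdsr, Ormdl1 and Plpp2 for old B1 against old FO.

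Among 4 transport and carrier genes, Spns2, the exporter of sphingosine 1-phosphate, was highest in old FO. It measured 9.44, 8.92 and 9.65 in old FO, 7.91, 8.10 and 8.15 in old ABC, 7.21, 7.28 and 5.64 in old B1 and 7.45, 7.58 and 7.58 in young B1. Old B1 was lower than old FO (-2.63 ± 0.37, limma adjusted p = 7.0e-04) and old ABC was higher than old B1 (1.34 ± 0.37, limma adjusted p = 0.0365), while old ABC against old FO was not called (-1.28 ± 0.37, limma adjusted p = 0.0546). Without old B1 replicate 3, the Spns2 difference between old ABC and old B1 was 0.81 ± 0.18 (limma adjusted p = 0.013), and that between old ABC and old FO was called (-1.28 ± 0.16, limma adjusted p = 4.0e-04). Apom, the carrier apolipoprotein M, was lower in old B1 than in old FO (-0.86 ± 0.24, limma adjusted p = 0.0337), but not without old B1 replicate 3 (-0.58 ± 0.19, limma adjusted p = 0.0603). The list had 0 of 4 called between old ABC and old FO, 1 of 4 between old ABC and old B1 and 2 of 4 between old B1 and old FO.

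Of 5 phosphatases that act on sphingosine 1-phosphate or related lipids, 1 was called between old ABC and old FO, 1 between old ABC and old B1 and 3 between old B1 and old FO. Plpp3 was lowest in old FO, like Sgpl1, with old ABC higher by 0.77 ± 0.13 (limma adjusted p = 0.00301) and old B1 by 0.65 ± 0.13 (limma adjusted p = 0.00576). Plpp1 was higher in old ABC than in old B1 by 1.84 ± 0.25 (limma adjusted p = 7.4e-04). Plpp1 was lower and Plpp2 higher in old B1 than in old FO, with differences of -1.14 ± 0.25 (limma adjusted p = 0.00961) and 1.11 ± 0.26 (limma adjusted p = 0.015). Without both arrays that stood apart, Plpp1 differed by -0.75 ± 0.22 and Plpp2 by 0.67 ± 0.22, the second no longer called (limma adjusted p = 0.0643). Sgpp1, the specific phosphatase, lay at 10.81 to 11.26 over the 12 arrays and was called in no comparison.

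Of 6 genes for ceramidases and the handling of the lyase product, only Asah2 was called, 1 of 6 in each old ABC comparison and 0 of 6 between old B1 and old FO. Asah2, the neutral ceramidase that releases sphingosine, was lower in old ABC than in old FO (-2.17 ± 0.17, limma adjusted p = 2.4e-05) and than in old B1 (-1.87 ± 0.17, limma adjusted p = 6.1e-05). It measured 5.54, 5.07 and 5.55 in old ABC and 6.74 to 7.68 on all other arrays. Each old ABC value lay under its array's median, so Asah2 was not shown to be above background there.

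Ceramide synthesis had 2 of 14 genes called between old ABC and old FO, 3 between old ABC and old B1 and 4 between old B1 and old FO. Cers6, a ceramide synthase, was higher in old ABC than in old FO (2.17 ± 0.52, limma adjusted p = 0.024) and old B1 (2.48 ± 0.52, limma adjusted p = 0.0101). Without old B1 replicate 3 the Cers6 difference from old B1 was 1.70 ± 0.22 (limma adjusted p = 5.2e-04). Cers4, another ceramide synthase, was lower in old ABC than in old FO (-0.66 ± 0.16, limma adjusted p = 0.0283). Between old B1 and old FO, Cers4 was lower (-0.72 ± 0.16, limma adjusted p = 0.0118) and Degs1, which makes ceramide from dihydroceramide, higher (0.69 ± 0.16, limma adjusted p = 0.0129), the latter not called without both arrays that stood apart (0.52 ± 0.16, limma adjusted p = 0.0503).

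Sphingomyelin and glycosphingolipid turnover had 2, 3 and 1 of 9 called in the same order. Galc, which cleaves galactosylceramide, was higher (1.41 ± 0.29, limma adjusted p = 0.0107) and Sgms1, a sphingomyelin synthase, lower (-1.12 ± 0.23, limma adjusted p = 0.0117) in old ABC than in old FO. Cerk, the ceramide kinase, was higher in old ABC than in old B1 (0.88 ± 0.12, limma adjusted p = 9.2e-04) and lower in old B1 than in old FO (-0.61 ± 0.12, limma adjusted p = 0.00642).

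Of 16 genes for receptor coupling and desensitisation, 3 were called between old ABC and old FO, 1 between old ABC and old B1 and 3 between old B1 and old FO. Grk5, a kinase that desensitises G protein-coupled receptors, was higher in old ABC (1.82 ± 0.14, limma adjusted p = 2.1e-05) and old B1 (1.49 ± 0.14, limma adjusted p = 4.6e-05) than in old FO. Gna13, the G protein subunit through which S1pr2 acts, was lower in old ABC than in old FO (-0.47 ± 0.11, limma adjusted p = 0.0171), as was the RhoGEF Arhgef11 (-1.39 ± 0.34, limma adjusted p = 0.027). Arhgef12 was higher in old B1 than in old FO (1.62 ± 0.22, limma adjusted p = 5.6e-04). Arhgef1, the RhoGEF of lymphocytes, was called in no comparison.

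Of 6 regulators of receptor expression or surface level, 3 were called between old ABC and old FO, 2 between old ABC and old B1 and 3 between old B1 and old FO. Tbx21, which encodes T-bet, and Zeb2, both transcription factors tied to S1pr5 in NK cells, were higher in old ABC than in old FO by 3.16 ± 0.25 and 2.01 ± 0.18. Tbx21 measured 8.35 to 8.63 in old FO and 5.89 to 6.75 in old B1 (old B1 minus old FO -2.27 ± 0.25, limma adjusted p = 1.4e-04). Zeb2 was higher in old B1 than in old FO (1.05 ± 0.18, limma adjusted p = 0.00226). Foxo1, a transcription factor upstream of Klf2, was lower in old B1 than in old FO (-0.68 ± 0.13, limma adjusted p = 0.00536). Cd69, which removes S1pr1 from the surface, was lower in old ABC than in old FO (-0.88 ± 0.17, limma adjusted p = 0.0078). Klf2, a transcription factor that activates S1pr1, was called in no comparison, and the sign of its difference between old ABC and old FO turned with 1 array. That difference was 0.26 ± 0.33 over all arrays and -0.08 ± 0.30 without old FO replicate 2, where Klf2 measured 10.94 against 12.03 and 11.92 on the other old FO arrays.

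The genes whose log2 intensity followed S1pr5 most closely over the 12 arrays, among 10697 genes ranked, were Ramp3 (Pearson r = 0.996), Stx3 (r = 0.992) and Ift43 (r = 0.984). Ramp3, an accessory protein of G protein-coupled receptors, measured 9.25 to 9.86 in old ABC and 3.82 to 5.57 elsewhere. Within old B1 it gave 5.35, 5.57 and 4.20, lowest on the same array as S1pr5. Each of these values lay under its array's median. Ramp3 was picked by likeness on the same 12 arrays, so this is a description only. Zeb2 stood at rank 395 (r = 0.816) and Tbx21 at rank 422 (r = 0.810). For Sgpl1 they were Clic4 (r = 0.964), Sfxn1 (r = 0.963) and Sel1l (r = 0.963), with old FO the lowest group mean for each. All 12 arrays enter each correlation, groups included, so the values describe likeness across groups.

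**Figure D4:**
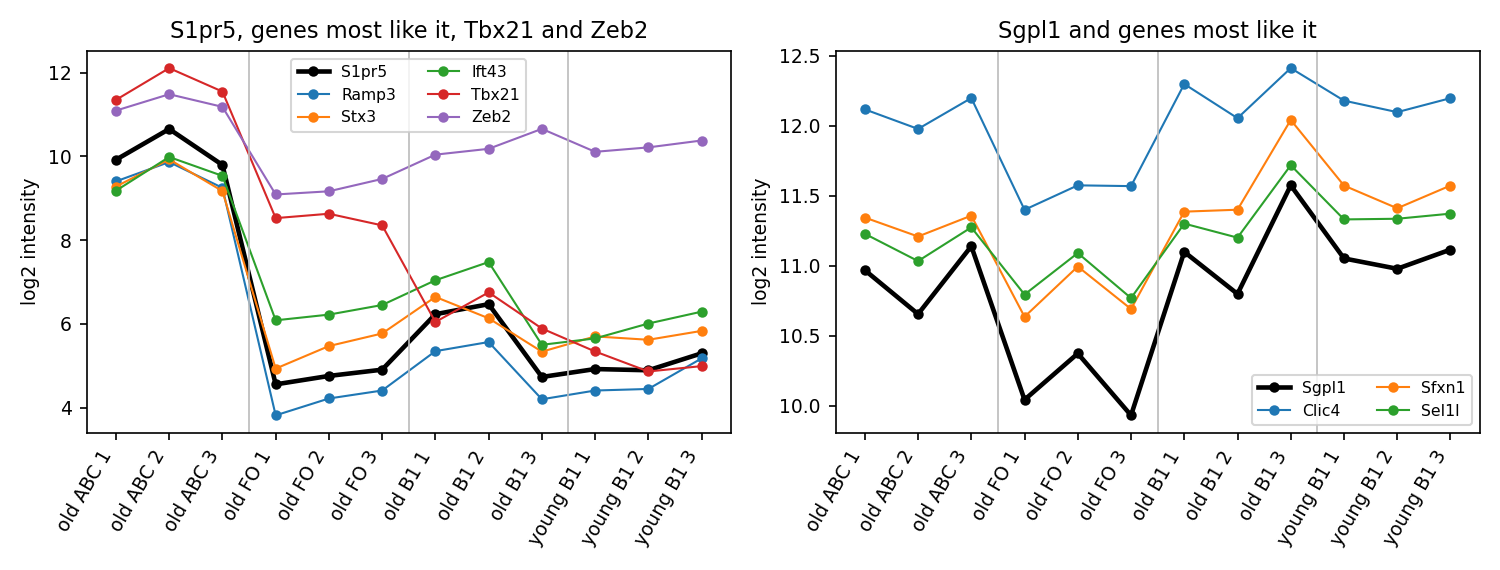
Log2 intensity over the 12 arrays of S1pr5 and Sgpl1, each beside the 3 genes most like it by Pearson correlation, with Tbx21 and Zeb2 added for S1pr5. Ramp3, Stx3 and Ift43 are high on the 3 old ABC arrays as S1pr5 is, and Clic4, Sfxn1 and Sel1l have their lowest group mean in old FO as Sgpl1 does.

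Markers of cells known for S1pr5 differed between the groups. Of 9 NK cell markers, 2 were higher in old ABC than in old FO and 3 than in old B1, and of 6 patrolling monocyte markers 4 and 2 were higher, with 1 lower than in old B1. The summed intensity of the NK markers was 1740 to 3839 in old ABC, 965.5 to 1628 in old FO, 429.1 to 2283 in old B1 and 978.5 to 1285 in young B1. Gzma, a granzyme of NK and T cells, measured 10.38, 8.42 and 9.22 in old ABC, 4.27, 5.70 and 5.40 in old FO, 7.02, 6.56 and 3.58 in old B1 and 4.81 to 5.98 in young B1, so its old ABC arrays, like those of S1pr5, lay above all others. The defining NK gene Ncr1 (2.86 to 5.27) and the defining monocyte gene Cx3cr1 (4.02 to 5.48) lay under the median of every array. Old ABC replicate 2, with the highest S1pr5 at 10.65, had the lowest NK sum of its group, 1740, and old FO replicate 2 had an NK sum of 1628 with S1pr5 at 4.76. Within old B1 the NK sums were 2283, 1683 and 429.1 beside S1pr5 at 6.23, 6.47 and 4.73. Replicate 3, an array that stood apart, was thus lowest of its group in both. The patrolling monocyte sum was 2444 to 3002 in old ABC, 1821 to 2265 in old FO and 3152 to 4872 in old B1, and its members differed in direction. Treml4 (7.48 to 7.57 in old ABC, 3.69 to 5.33 elsewhere) and Ace (5.35 to 6.32 in old ABC, 4.67 to 5.23 elsewhere) had all old ABC arrays above all others, as S1pr5 did. Fcgr4 was highest in old B1, at 9.90 to 11.82 against 8.36 to 9.02 in old ABC. Whether such cells had a part in the S1pr5 difference was not tested beyond these values.

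**Figure D5:**
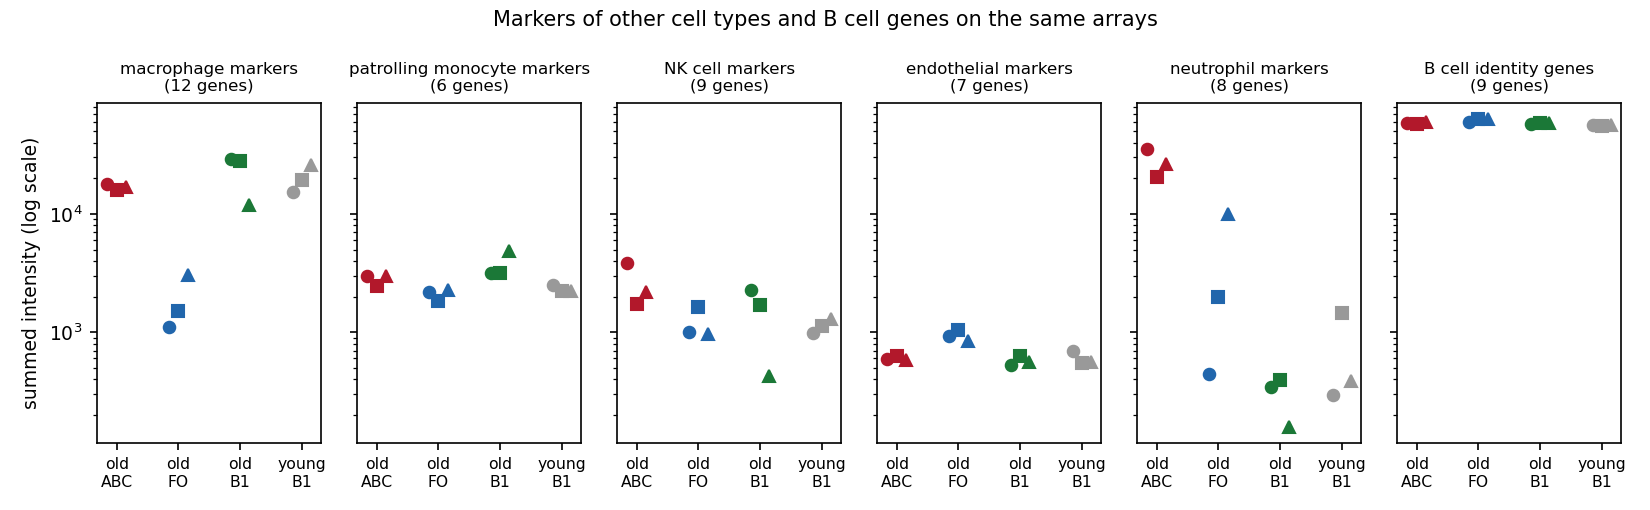
Summed linear intensity of 5 marker lists of other cell types and of the B cell identity genes on each of the 12 arrays, by group, on a log axis. The NK sum is 1740 to 3839 in old ABC and 965.5 to 1628 in old FO, and the macrophage sum is 1109 to 3039 in old FO and 11780 or more on every other array.

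Markers of other cell types were also set beside S1pr3, Sgpl1 and S1pr5. Of 12 macrophage markers, 10 were higher in old ABC than in old FO and all 12 in old B1 than in old FO, where Sgpl1 was lowest too. Their summed intensity was 16010 to 17860 in old ABC, 1109 to 3039 in old FO, 11780 to 28970 in old B1 and 15220 to 25830 in young B1. Csf1r, the defining macrophage gene, lay above the median on all arrays. Between old ABC and old B1, 1 of the 12 was called higher, 1 lower and 10 were not called. Adgre1 measured 12.27, 12.60 and 12.14 in old ABC and 10.70, 10.78 and 9.04 in old B1. Its old ABC arrays, like those of S1pr5, lay above all others. Old B1 replicate 3 had the highest Sgpl1 and S1pr3 of its group, at 11.57 and 11.68, and the lowest macrophage sum, 11780. Young B1, whose macrophage sums overlapped those of old ABC, had the lowest S1pr3 mean, 8.32. The 7 endothelial markers, from a cell type that also bears S1P receptors, summed to 586.7 to 630.4 in old ABC and 839.7 to 1034 in old FO. Most of that was Pecam1, at 463.5 to 469.2 in old ABC and 698.9 to 883.1 in old FO, and Cdh5 lay under every array's median. The part of macrophages in the S1pr5, S1pr3 and Sgpl1 differences was not tested.

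Among the remaining lists, called between old ABC and old FO, old ABC and old B1, and old B1 and old FO in that order, neutrophil markers had 5, 8 and 0 of 8 called and T cell markers 1, 1 and 0 of 7, with Cd3e at 6.12 to 9.27. Dendritic cell markers had 2, 2 and 3 of 7 and mast cell markers 3, 4 and 6 of 8. Erythroid and platelet markers had 1, 4 and 4 of 7, mesothelial and fibroblast markers 1, 2 and 2 of 10, plasma cell markers 4, 4 and 2 of 7, endothelial markers 2, 1 and 2 of 7 and B cell identity genes 1, 2 and 4 of 9. The neutrophil sum was 20690 to 35030 in old ABC, 442.5 to 9959 in old FO, 157.1 to 391.9 in old B1 and 295.4 to 1465 in young B1, so it was highest where S1pr5 and S1pr3 were, and its part in them was not tested. Within old ABC it was lowest on replicate 2, where S1pr5 was highest. The mesothelial and fibroblast sum was 6126 to 9872 in old B1 and 3424 to 3762 in young B1. It was 165.8 to 229.9 in old FO, where Sgpl1 was lowest. In old ABC it was 219.2 to 597.1, where Sgpl1 lay at 10.65 to 11.14. The part of such cells in the Sgpl1 difference was not tested. Krt18 (11.90 to 12.33) and Krt8 (9.54 to 12.30) were high in old B1 and made up most of its mesothelial and fibroblast sum. On old B1 replicate 1 their intensities were 5036 and 4686, beside a sum of 9872. Msln, Upk3b, Wt1, Krt19, Col1a2 and Pdgfra of the same list lay under the median of every array. Of 6 marginal zone B cell genes, a list chosen after its values were seen, Cr2 was lower (-2.86 ± 0.40, limma adjusted p = 9.5e-04) and Cd9 higher (2.46 ± 0.23, limma adjusted p = 7.9e-05) in old ABC than in old FO, with 2, 4 and 3 of 6 called.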

How the data were processed

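Affymetrix arrays measured the RNA of sorted B cells in 4 groups of 3, assigned from the sample titles and labels. The authors deposited linear intensity values. The submitters' processing notes name RMA and affy, with versions and parameters not given in the sources used here. From each deposited intensity the log2 was computed. Genes were named from the platform annotation, and each was represented by the probe set of highest mean among those with 1 symbol, with no filter on dim probe sets. Of 45037 probe sets, 34945 carried 1 symbol, 932 several and 9160 none, and the last 2 kinds were left out.

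All 12 arrays and 18193 genes were fitted with 4 group means in limma 3.58.1 (R 4.3.3; lmFit and eBayes), with 8 residual and 2.37 prior degrees of freedom. P-values were adjusted by the Benjamini-Hochberg method over all genes within a comparison. The procedure was tested on simulated data. The number of arrays limits the precision. Figures were drawn with matplotlib 3.10.9.

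The 8 genes, the pathway and marker lists and the alternative without 2 arrays were chosen with earlier results of these data known. All 8 genes are named in every comparison. Of each pathway list the rule takes up to 3 called genes of lowest p a comparison, not all of which are printed here. It also takes Spns2, Sgpp1, Gna13, Arhgef1, Klf2, Cd69, Tbx21 and Zeb2 whatever their result, and for S1pr5 and Sgpl1 the 3 most correlated genes. Promoters are RefSeq entries of GRCm38.p6, present for 7 of the 8 genes. Alternatives were array weights, trend and robust fitting, a block for the replicate number, fits of 2 groups only, centring, cyclic loess, log2 of intensity plus 16, a filter on dim genes, other probe set rules, an adjusted p under 0.01 and leaving out arrays.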

Additional observations from a re-analysis of the deposited data

How the results depend on the processing

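Each array group holds 3 arrays, and 7 arrays lie under their median for S1pr5 and 12 for Sphk1, so folds against those levels are imprecise. Of 572 recomputed differences of the 8 genes, 494 kept their direction and side of the threshold, 8 lost a call, 19 gained one and 51 changed sign. The S1pr5 calls of old ABC against old FO and against old B1 kept direction and side throughout. Where no cause is named, the cause was not tested.

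Among genes called with array weights there were 4 of the 8 for old ABC against old FO (21.8% of all genes), 2 for old ABC against old B1 (19.7%), 2 for old B1 against old FO (27.5%) and 1 for old B1 against young B1 (1.74%), and the pathway counts were 24 for old ABC against old FO and 2 for old B1 against young B1. With only the 2 groups compared, old B1 against old FO gave 0 of the 8 (8% of all genes), and the pathway counts were 6 for old ABC against old B1 (5.84%) and 6 for old B1 against old FO. Cyclic loess gave 2 for old B1 against old FO (16.9%). Centring on the median (10.4%) and the mean of the probe sets (9.71%) each gave 1 for old ABC against old FO. An adjusted p under 0.01, a stricter threshold, gave 1 for old ABC against old FO (5.44% of all genes), 1 for old ABC against young B1 (6.23%), 0 for old FO against young B1 (7.24%) and 1 for any difference (12.1%).

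With arrays left out, counts of the 8 genes called ranged from 1 to 4 for old ABC against old FO (6.96% to 16.3% of all genes), 1 to 2 for old ABC against old B1 (8.84% to 17.5%), 1 to 3 for old B1 against old FO (11.5% to 22%) and 0 to 1 for old B1 against young B1 (0.0934% to 1.14%). They ranged from 1 to 3 for old ABC against young B1 (7.17% to 20.7%), 0 to 1 for old FO against young B1 (8.05% to 22.4%) and 1 to 4 for any difference (15.8% to 30.3%). Without both arrays that stood apart, the pathway count for old ABC against old FO was 19.

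Signs that turned belonged to differences that were not called. With array weights, S1pr1 was 0.0929 for old ABC against old FO and 0.0022 for old ABC against old B1, S1pr4 was -0.0977 for old ABC against old B1, and Sgpl1 was -0.0838 for old B1 against young B1. With cyclic loess, S1pr1 was 0.0411 for old ABC against old FO and 0.0434 for old B1 against young B1, S1pr2 was -0.0608, S1pr4 -0.0397 and Sphk2 -0.0649 for old ABC against old B1, and Sphk1 was 0.0309 for old ABC against old FO and 0.0119 for old B1 against old FO. With centring, S1pr4 was -0.0207 for old ABC against old B1. With the mean of the probe sets, Sphk1 was -0.0158 for old B1 against young B1 and Sphk2 -0.112 for old ABC against old B1.

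Leaving out arrays moved S1pr1 from -0.103 to 0.0576 for old ABC against old FO, -0.133 to 0.0155 for old ABC against old B1, -0.0286 to 0.132 for old B1 against old FO and -0.145 to 0.0040 for old B1 against young B1. S1pr2 ran from -0.107 to 1.33 for old ABC against old FO, -0.0603 to 0.256 for old ABC against old B1 and -0.203 to 1.23 for old B1 against old FO. S1pr3 ran from -0.197 to 1.65 for old B1 against old FO, and S1pr4 from -0.107 to 0.0873 for old ABC against old B1. Sphk1 ran from -0.122 to 0.0603 for old ABC against old FO, -0.0243 to 0.133 for old ABC against old B1, -0.165 to 0.0184 for old B1 against old FO and -0.0221 to 0.0583 for old B1 against young B1. Sphk2 ran from -0.256 to 0.0041 for old ABC against old FO and -0.0699 to 0.229 for old ABC against old B1, and Sgpl1 from -0.0998 to 0.288 for old B1 against young B1.

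With the replicate number as a block, 2 of the 8 genes were called for old ABC against old FO (8.48% of all genes), 1 for old ABC against old B1 (11.2%), 1 for old B1 against old FO (14.1%) and 0 for old B1 against young B1 (0.176%), the same counts as without it. Same-numbered arrays of different groups did not deviate together: 3 of 18 pairs correlated over 0.1, and r ran from -0.39 to 0.23.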
